A study of Mus musculus with 51 samples.

Results

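Cytosolic heat shock proteins are the chaperones that hold, refold or hand on unfolded proteins in the cytosol. They are described here by transcript level in alveolar macrophages, which live in the airspaces of the lung and ingest inhaled particles. The members were named as 10 genes: Hspa1a, Hspa1b, Hspa8, Hsph1, Hsp90aa1, Dnaja1, Dnaja4, Dnajb1, Hspb1 and Hsf1. Probe sets were taken where the platform annotation gave that gene as the only symbol, which found 22 probe sets for 9 of the 10 genes among 22626 probe sets tested. Hsf1 is not analysed here. Each gene is represented by its main probe set, the one with the highest mean log2 signal over all 51 arrays, and further probe sets are given where they differ. The series holds 12393 genes represented in this way.

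The tested mice were gp91phox-/- mice (KO), which lack the catalytic subunit of the phagocyte NADPH oxidase, and they were set against C57Bl/6 mice (WT). In KO mice, 3 arrays each came from macrophages 2 h and 4 h after conidia of Aspergillus fumigatus at the amounts labelled e6 and e7, 2 h and 4 h after a mock inoculation, and at 0 h without treatment. In WT mice the same conditions had 4 arrays each, and 2 further arrays came 4 h after polystyrene beads. This gave 21 KO and 30 WT arrays in 15 groups. The titles placed every array in its group, but the treatment note of the WT 4 h mock arrays speaks of conidia and the source names of 3 exposed WT groups add untreated control, so the mock identity of that group rests on its title. The labels call replicates biological without saying how many mice each stands for, do not spell out the unit of e6 and e7, and do not say whether the genotypes were bred together. P-values therefore measure the spread between arrays as labelled, and genotype and colony cannot be told apart.

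The inducible HSP70 genes Hspa1a and Hspa1b encode almost the same protein and are switched on when unfolded protein frees the transcription factor HSF1, which binds heat shock elements, inverted repeats of the short motif GAA. HSP70 works with HSP40 partners, which bring it clients and start its ATP cycle, and with HSP110, which exchanges its nucleotide. HSP90 takes over clients such as kinases and receptors, and small heat shock proteins hold unfolded protein without ATP. In macrophages, fever, phagocytosis and oxidants are known settings in which this system is used.

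The promoters of 4 members are shown because these genes varied together between arrays and each holds a pair of inverted heat shock half-sites. Dnajb1 also varied with these 4, at r of 0.63 to 0.67 after group means were taken away. It is not shown because its windows held no pair, so the choice does not tie varying together to the motif. Sequences are RefSeq's on build GRCm38.p6, 250 bases ending at the base before an annotated transcript start, and capitals mark GAANNTTC or TTCNNGAA. Both motifs read the same on either strand. Hspa1a lies at chr17:34972157-34972406 (- strand), Hspa1b at chr17:34959239-34959488 (- strand), Dnaja1 at chr4:40722218-40722467 (+ strand) and Hsph1 at chr5:149636337-149636586 (- strand).
Hspa1a: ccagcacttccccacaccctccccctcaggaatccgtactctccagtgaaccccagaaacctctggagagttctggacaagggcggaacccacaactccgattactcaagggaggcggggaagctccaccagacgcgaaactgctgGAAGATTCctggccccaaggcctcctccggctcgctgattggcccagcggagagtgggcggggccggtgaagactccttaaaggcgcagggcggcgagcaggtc
Hspa1b: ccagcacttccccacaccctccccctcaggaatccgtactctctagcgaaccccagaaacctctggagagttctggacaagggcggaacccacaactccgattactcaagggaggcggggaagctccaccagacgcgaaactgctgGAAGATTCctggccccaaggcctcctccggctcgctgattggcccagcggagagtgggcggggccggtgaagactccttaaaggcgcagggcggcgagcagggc
Dnaja1: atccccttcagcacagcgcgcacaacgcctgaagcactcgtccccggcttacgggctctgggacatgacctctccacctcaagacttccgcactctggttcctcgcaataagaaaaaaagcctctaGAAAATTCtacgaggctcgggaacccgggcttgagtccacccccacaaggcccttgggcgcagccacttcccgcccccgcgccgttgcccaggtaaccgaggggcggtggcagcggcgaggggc
Hsph1: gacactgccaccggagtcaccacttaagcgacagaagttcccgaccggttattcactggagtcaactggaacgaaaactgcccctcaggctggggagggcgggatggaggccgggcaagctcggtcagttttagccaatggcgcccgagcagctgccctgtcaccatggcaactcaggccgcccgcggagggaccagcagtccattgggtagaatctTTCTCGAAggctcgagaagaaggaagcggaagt

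The Hspa1a and Hspa1b promoters differed at 3 of these 250 positions, and the pair began 104 bases before the start in both. The pair of Dnaja1 began 124 bases before the start shown, and the windows at the other annotated starts of Dnaja1 held none. The pair of Hsph1 began 33 bases before the start shown, with further pairs after that start that are not shown and that overlap in part. Of 7 members with an entry in the promoter table, 6 held such a pair in at least 1 of their windows of 250 bases before to 50 bases after a start. Hspb1 held 2 pairs, beginning 117 and 97 bases before its start, Dnaja4 held 2 at 1 of its starts, and the windows of Dnajb1 held none. Among all genes with a promoter entry, 4587 of 27025 genes (17%) held either pair in at least 1 window. Counted by window, 7 of the members' 12 windows held one, against 15.1% of all 32851 windows, in which GAANNTTC alone was found in 7.86% and TTCNNGAA in 8.52%. These matches are descriptions of letters, not of binding.

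Cybb, which encodes gp91phox, lay at a log2 signal of 6.77 to 9.06 on KO arrays and 10.59 to 12.12 on WT arrays, so each array matched its genotype label. Alveolar macrophage markers (10 of 11 measured) averaged 12.85 to 13.27 on KO arrays and 12.53 to 13.06 on WT arrays. Neutrophil markers (10 of 11 measured) averaged 4.72 to 6.94 on KO arrays and 4.39 to 8.08 on WT arrays, and lay above 7 on 3 WT arrays, 1 each of 4 h e6 (replicate 4), 4 h e7 (replicate 3) and 4 h mock (replicate 3). The T and NK cell list (5 of 7 measured) averaged 2.60 to 5.71 on KO arrays and 2.24 to 4.25 on WT arrays. The 4 arrays of the WT 4 h e7 group were unlike each other: over 5091 genes with a mean log2 signal of at least 8, pairs of its arrays correlated at 0.84 to 0.97, against 0.92 to 0.99 in the other 14 groups. Its replicates 2 and 3 correlated best with each other. In these bulk arrays, fewer cells expressing a gene and less RNA per cell cannot be told apart.

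Inducible HSP70 transcripts were high in gp91phox-/- macrophages under every condition and variable in C57Bl/6 macrophages. Averaged over the 7 conditions that both genotypes share, Hspa1a was 2.52 ± 0.26 log2 units higher in KO than in WT arrays, a 5.74-fold difference (limma, adjusted p = 1.14e-09; SE). Hspa1b was 2.65 ± 0.36 log2 units higher, a 6.28-fold difference (limma, adjusted p = 3.11e-07). Smaller genotype differences passed for Dnaja4, an HSP40 gene (0.79 ± 0.15, limma adjusted p = 1.15e-04), and Hspb1, which encodes the small heat shock protein HSP27 (0.53 ± 0.15, limma adjusted p = 0.0052). With signals under 50 set to 50 the Dnaja4 difference was 0.23 and passed, since 25 of the 51 arrays lay under that signal. By the second probe set neither of these 2 passed, and with quantile normalization Hspb1 did not pass. The second probe set lay under a signal of 50 on 35 of 51 arrays for Dnaja4 and on all 51 for Hspb1. At such signals it cannot decide for or against either difference. The 4 of 9 members called, all higher in KO, stand against 33.4% of all probe sets called and 21.9% called as higher in KO, so genotype differences were common on these arrays. The other 5 members lay between -0.26 and 0.14 and did not pass, but this mean joins conditions of unlike sign. At 2 h after mock the KO minus WT difference was 0.85 for Hsph1, 0.70 for Dnaja1 and 0.70 for Dnajb1. At 4 h after e7 it was -0.48, -0.54 and -1.83 in the same order, and differences after e7 were not tested one by one. On the second Dnajb1 probe set the difference at 4 h after e7 was 0.91.

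On the 21 KO arrays the log2 signal of Hspa1a was 9.47 at the lowest, 10.27 at the median and 11.29 at the highest, against 5.24, 7.62 and 10.24 on the 30 WT arrays. Only 3 WT arrays lay above the lowest KO array and 0 reached the KO median. The SD over arrays, conditions together, was 0.55 in KO and 1.29 in WT. Hspa1b ranged from 10.75 to 12.62 with a median of 11.66 on KO arrays, against 5.40 to 12.10 with a median of 8.70 on WT arrays. Of the WT arrays, 6 lay above the lowest KO array and 2 reached the KO median. Every KO array lay above every WT array of its condition in 6 of 7 conditions for Hspa1a and in 5 of 7 for Hspa1b. The share of all probe sets with KO above WT in this way was 6.5% untreated, and 7.99%, 6.17% and 19.6% at 2 h after mock, e6 and e7. At 4 h it was 12.5%, 21.6% and 12.2% in the same order of exposures.

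Ordered by group mean, the 7 KO groups held the first 7 places for Hspa1a, at 10.09 (4 h mock) to 10.70 (4 h e7). The next was WT 2 h e7 at 9.42 ± 0.94 (SD, n = 4), followed by WT 4 h e7 at 8.52 ± 0.68 and WT untreated at 8.04 ± 1.66. WT 4 h mock came last at 6.59 ± 0.95, after WT 4 h beads at 6.98 ± 0.74 (n = 2). The arrays of every pair of neighbours in this order overlapped. The plot of Hspa1a and Hspa1b by array shows the KO groups as 1 level band and the WT groups spread beneath it.

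**Figure D1:**
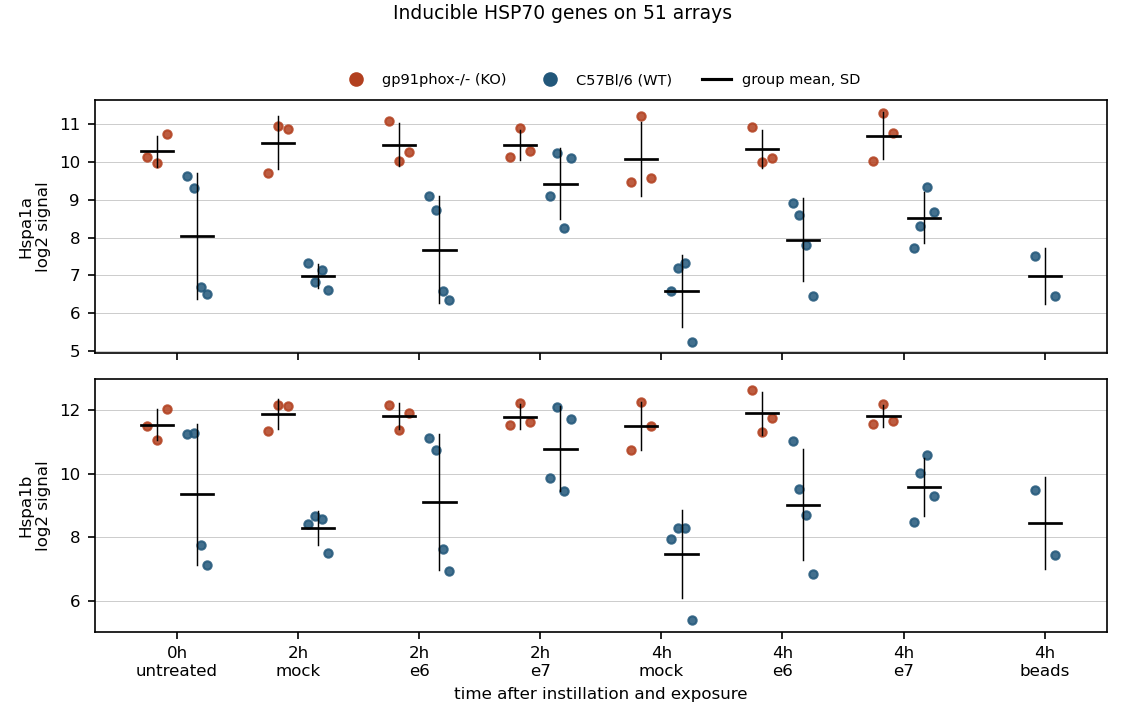
Log2 signal of Hspa1a and Hspa1b (vertical axes) on each of 51 arrays, by time and exposure, with KO left of WT; points are arrays, horizontal lines group means and vertical lines SD. KO groups average 10.09 to 10.70 for Hspa1a, while WT untreated and WT 2 h e6 each split into 2 high and 2 low arrays.

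The genotype difference of Hspa1a and Hspa1b was largest after mock. After conidia that of Hspa1a was 2.78 (2 h e6), 1.02 (2 h e7), 2.40 (4 h e6) and 2.18 (4 h e7), and these were not tested one by one. At 2 h after mock, Hspa1a lay at 9.71, 10.96 and 10.87 on the KO arrays, against 7.32, 6.82, 7.15 and 6.62 on the WT arrays. All KO arrays were above all WT arrays, and the difference of 3.53 ± 0.70 passed (limma, adjusted p = 0.00203). Hspa1b lay at 11.34, 12.16 and 12.13 on KO arrays, against 8.43, 8.68, 8.56 and 7.50 on WT arrays, a difference of 3.58 ± 0.95 that passed (limma, adjusted p = 0.0308) but was lost when any 1 of these 7 arrays was left out. These 2 of 9 members stand against 2.25% of all probe sets called and 1.49% called as higher.

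At 4 h after mock, Hspa1a lay at 9.47, 11.22 and 9.57 on KO arrays, against 6.60, 7.21, 7.32 and 5.24 on WT arrays. The groups did not overlap, and the difference was 3.50 ± 0.70 (limma, adjusted p = 0.00263). Hspa1b differed by 4.02 ± 0.95 (limma, adjusted p = 0.0113), with KO arrays at 10.75, 12.26 and 11.48 and WT arrays at 7.96, 8.28, 8.28 and 5.40. Leaving out WT mock replicate 4 or KO mock replicate 2 lost that call. Dnaja4 was 1.40 ± 0.41 higher (limma, adjusted p = 0.0400), at a signal near the low end of the array, and this call was lost without any 1 of 4 arrays (KO replicates 1 and 3, WT replicates 1 and 4). With signals under 50 set to 50 the Dnaja4 difference was 0.37 and did not pass, nor did it pass with quantile normalization (0.97) or by the second probe set. The 3 of 9 members stand against 4.06% of all probe sets called and 3.02% called as higher. With only the compared groups in the fit, 0 of the 3 passed.

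In untreated macrophages the pattern was less clear, because the WT arrays split. Hspa1a lay at 10.13, 9.98 and 10.74 on KO arrays, against 9.63, 9.31, 6.69 and 6.52 on WT arrays. The KO arrays were all higher, but the difference of 2.24 ± 0.70 did not pass (limma, adjusted p = 0.0862), and neither did that of Hspa1b (2.18 ± 0.95, limma adjusted p = 0.274). The count was 0 of 9 members, with 1.99% of all probe sets called. Without WT replicate 1 Hspa1a passed.

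Both further probe sets of Hspa1b gave the same picture, with KO minus WT differences of 2.88 ± 0.34 (limma, adjusted p = 2.44e-08) and 2.90 ± 0.35 (limma, adjusted p = 2.66e-08). Over the 51 arrays the Hspa1a probe set correlated with the 3 Hspa1b probe sets at 0.97 to 0.98. The 2 genes are near-identical copies and their probe sets may share target RNA, so their levels cannot be assigned to 1 copy. The probe sets of constitutive HSC70, Hspa8, which folds new and unfolded protein in all cells, disagreed: the main one differed by -0.08 ± 0.07, another by 0.31 ± 0.10 (limma, adjusted p = 0.0186) and a dimmer one by -1.10 ± 0.26 (limma, adjusted p = 0.00115). For Hsph1, which encodes HSP110, the second probe set was 0.61 ± 0.16 higher in KO (limma, adjusted p = 0.00277), against 0.14 ± 0.11 by the main one.

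**Figure D2:**
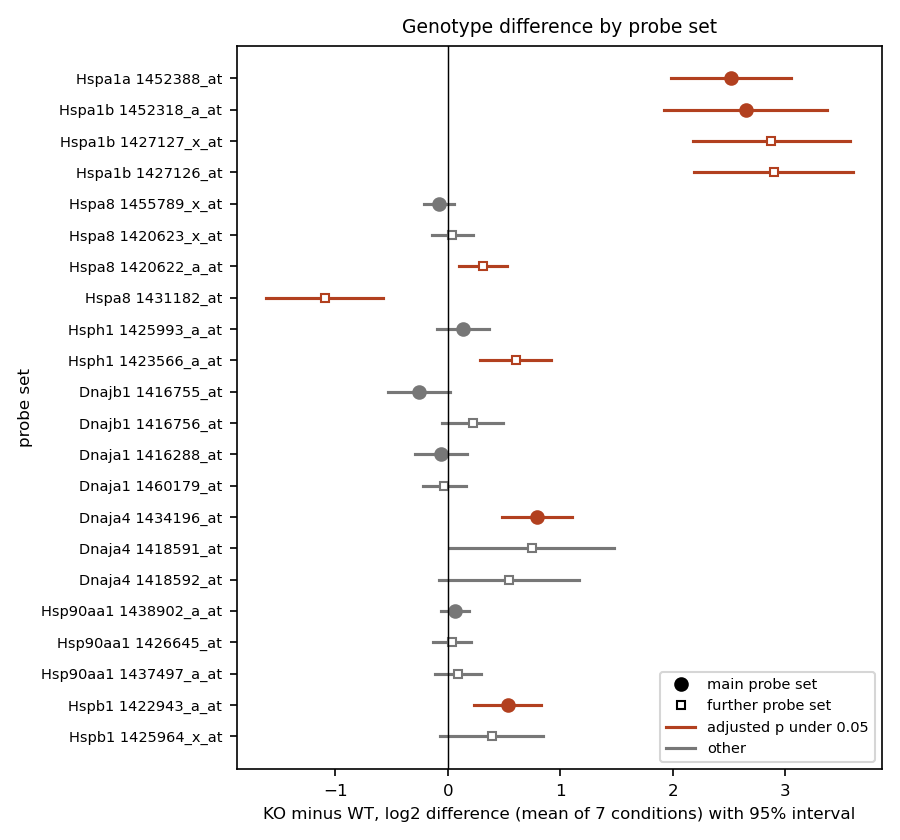
KO minus WT log2 difference averaged over 7 conditions (horizontal axis) for all 22 probe sets, with 95% intervals from limma. The 4 probe sets of Hspa1a and Hspa1b lie between 2.52 and 2.90. The lowest value, -1.10, is that of the least bright Hspa8 probe set, which has a mean log2 signal of 8.73.

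Array quality differed between groups, and its part in the genotype difference was measured only in part. The 3'/5' log2 ratio, taken between control probe sets at either end of a transcript and higher where RNA is shortened, ran from 0.92 to 3.99 on KO arrays and 0.93 to 5.32 on WT arrays. With this ratio as a covariate, with quantile normalization and under 8 other settings, the Hspa1a difference lay between 2.27 and 2.57 and that of Hspa1b between 2.23 and 2.88, and both passed each time. Hspa1a has 1 probe set, so the second probe set setting repeated its main result, and leaving out dim probe sets cannot move a difference.

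In C57Bl/6 macrophages, e7 conidia went with higher levels of several members at 2 h. Hspa1a lay at 9.10, 10.24, 8.25 and 10.11 on the e7 arrays, against 7.32, 6.82, 7.15 and 6.62 on the mock arrays. No e7 array overlapped the mock arrays, and Hspa1a rose by 2.44 ± 0.64 log2 units (limma, adjusted p = 0.0409). Dnaja4 lay at 6.61, 6.23, 5.19 and 6.41 after e7, against 4.08, 5.03, 4.36 and 5.16 after mock, and rose by 1.45 ± 0.38 (limma, adjusted p = 0.0377). The 2 of 9 members stand against 1.61% of all probe sets called and 0.844% called as higher.

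All e7 arrays were also above all mock arrays for 5 members that did not pass by the main probe set. Their differences were 2.49 ± 0.88 for Hspa1b, 1.0 ± 0.28 for Hsph1, 0.99 ± 0.28 for Dnaja1, 0.94 ± 0.33 for Dnajb1 and 0.44 ± 0.15 for Hsp90aa1, with limma adjusted p from 0.0553 to 0.133. Such a separation towards higher levels was met by 5.1% of all probe sets, and by the main probe sets of 7 of 9 members. For Dnaja1, an HSP40 gene, the second probe set rose by 1.27 ± 0.23 (limma, adjusted p = 0.00417), with e7 arrays at 11.55, 11.89, 11.12 and 11.74 and mock arrays at 10.52, 10.18, 9.98 and 10.53. The e7 and mock arrays did not overlap on it, nor on the further probe sets of Hspa1b. They did overlap on every further probe set of Hsph1, Dnajb1, Hsp90aa1 and Dnaja4.

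Both calls depended on the fit and on single arrays. With the 3'/5' ratio as a covariate or with only the compared groups in the fit, 0 of 9 members passed, and without single arrays between 0 and 4 did. The Hspa1a call was lost without any 1 array except e7 replicate 3, and that of Dnaja4 was lost without any 1 array except e7 replicate 3 or mock replicate 4. Without e7 replicate 3, 4 members passed. All mock signals of Dnaja4 lay under 50, and a floor at that signal brought its difference to 0.58, which did not pass, nor did it pass by the second probe set. The 3'/5' ratio itself was 2.09 to 4.85 on the e7 arrays and 0.93 to 1.47 on the mock arrays, and its part in the difference beyond that fit was not tested. The size of the Hspa1a difference lay between 2.38 and 2.54 over 8 other settings, the one with this ratio included. Among these, the second probe set setting repeated the main value, and leaving out dim probe sets cannot move it.

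At 4 h after e7 in WT macrophages the member with the lowest p was Dnajb1, which encodes the classical stress-induced partner of HSP70. Its log2 signal was 12.12, 12.95, 13.47 and 11.24 after e7, against 10.91, 10.88, 10.91 and 10.44 after mock. All e7 arrays were above all mock arrays, and the rise was 1.66 ± 0.33 (limma, adjusted p = 7.92e-04). Hsp90aa1, the inducible HSP90, rose by 0.54 ± 0.15 (limma, adjusted p = 0.0107). Its arrays lay at 12.50, 12.78, 13.23 and 12.35 after e7, against 12.30, 12.27, 12.12 and 12.00 after mock, without overlap. On both further probe sets of Hsp90aa1 the e7 and mock arrays overlapped, and by the second the rise did not pass.

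Hspa1a rose by 1.93 ± 0.64 (limma, adjusted p = 0.0353) at 4 h, with e7 arrays at 7.73, 8.32, 9.35 and 8.69 and mock arrays at 6.60, 7.21, 7.32 and 5.24. Hsph1 rose by 0.95 ± 0.28 (limma, adjusted p = 0.0168), with e7 arrays between 11.01 and 11.26 and mock arrays between 9.81 and 10.50. In both genes every e7 array was above every mock array. The same held for Hspa1b (2.11 ± 0.88, limma adjusted p = 0.101) and Dnaja1 (0.64 ± 0.28, limma adjusted p = 0.118), which did not pass, although the second Dnaja1 probe set did (1.06 ± 0.23, limma adjusted p = 0.0019). The 4 of 9 members called stand against 15.5% of all probe sets called and 5.84% called as higher. The 6 of 9 members whose e7 arrays were all higher by the main probe set stand against 4.11% of all probe sets.

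The 4 h values rest partly on the unlike arrays of the e7 group. Without e7 replicates 2 and 3, a choice made after the data were seen, 0 of 9 members passed. Without the 3 arrays with high neutrophil markers Dnajb1 alone passed, and with only the compared groups in the fit 0 did. The Hspa1a call was lost without e7 replicate 2 or 3 or mock replicate 1 or 4, that of Hsp90aa1 without e7 replicate 3 and that of Hsph1 without mock replicate 4, while Dnajb1 passed without any single array. The second Dnajb1 probe set went the other way, with 7.29, 6.46, 5.51 and 7.62 after e7 and 7.41, 6.62, 7.37 and 7.06 after mock, a difference of -0.39 ± 0.33 that did not pass (limma, adjusted p = 0.493). The 2 Dnajb1 probe sets did not follow each other over the 51 arrays (r = -0.05), so the rise is a result of 1 probe set.

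The 3'/5' log2 ratio was 1.64, 2.34, 3.83 and 1.26 on the e7 arrays in the order of the values above, against 1.19 to 2.34 on the mock arrays. Within the e7 group Dnajb1 and Hsp90aa1 were ordered as this ratio was, and the second Dnajb1 probe set in the opposite order. With the ratio as a covariate the Dnajb1 rise was 1.55 and that of Hsp90aa1 0.50, and Hspa1a, Hsph1, Hsp90aa1 and Dnajb1 again passed.

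**Figure D3:**
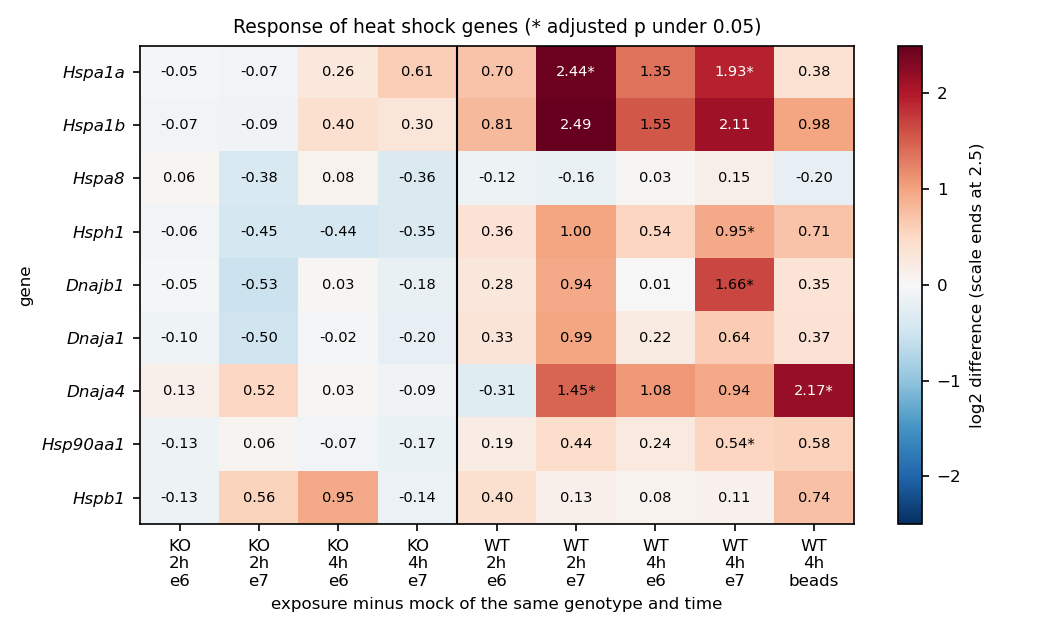
Log2 difference of each exposure from the mock of the same genotype and time (columns, KO left and WT right) for 9 members (rows), with asterisks at a limma adjusted p under 0.05. The WT e7 columns hold 6 of the 7 asterisks and the KO columns hold 0.

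Conidia went with no passing change of any member in gp91phox-/- macrophages. Hspa1a differed from mock by -0.07 ± 0.74 at 2 h and by 0.61 ± 0.74 at 4 h after e7, with 95% intervals of -1.58 to 1.44 and -0.89 to 2.12. After e7 at 2 h, 0 of 9 members passed, with 8.65% of all probe sets called and 1 member at an unadjusted p under 0.05. At 4 h the share of probe sets called was 0.00442%, with 0 members at an unadjusted p under 0.05. After e6 the share was 0% at 2 h and 0.0796% at 4 h, with 0 and 1 members at an unadjusted p under 0.05. Dnajb1 lay at 10.91, 10.92 and 10.90 at 2 h after e7 in KO, against 10.68, 11.80 and 11.85 after mock. At 4 h it lay at 10.56, 10.50 and 10.80 after e7, against 10.61, 10.84 and 10.94 after mock. In neither case did the groups separate. By the main probe set, every e7 array was below every mock array at 4 h for 3 of 9 members, and 9.05% of all probe sets were lower in that way. These were Hspa8, Dnaja1 and Hsph1, by means of -0.36, -0.20 and -0.35. On every further probe set of these 3 genes the e7 and mock arrays overlapped. With quantile normalization the Hspa8 difference was -0.12.

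The difference between the genotypes' responses was tested directly, as the KO change from mock minus the WT change. At 2 h after e7 it was -2.52 ± 0.98 for Hspa1a, -2.58 ± 1.34 for Hspa1b, -1.49 ± 0.43 for Dnaja1, -1.48 ± 0.51 for Dnajb1 and -1.44 ± 0.43 for Hsph1. None of the 9 main probe sets passed (limma, lowest adjusted p = 0.0653 for Dnaja1), with 1.45% of all probe sets called and 4 members at an unadjusted p under 0.05. At 4 h Dnajb1 had the lowest p, at -1.84 ± 0.51 (limma, adjusted p = 0.0741), and 0 of 9 members passed, with 0.19% called and 4 members at an unadjusted p under 0.05. After e6 the members called were 0 at both times, with 0% and 0.00442% of all probe sets called and 0 and 1 members at an unadjusted p under 0.05. A different response in the genotypes is therefore not shown by the main probe sets. These differences share their mock arrays with the genotype comparisons above: Hspa1a was already 3.53 log2 units higher in KO after mock at 2 h, and after e7 its KO mean was 10.44 and its WT mean 9.42.

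For Hsp90aa1 the third probe set did pass in the 2 h test of unequal responses, at -1.49 ± 0.38 (limma, adjusted p = 0.0372). On it, KO arrays lay at 11.23, 11.18 and 10.74 after e7 and at 11.03, 12.17 and 12.22 after mock, while WT arrays lay at 10.82, 11.34, 11.35 and 11.78 after e7 and at 10.69, 10.37, 10.43 and 10.90 after mock. KO mock replicates 2 and 3 were the high arrays. The main probe set of the gene gave -0.37 ± 0.23 (limma, adjusted p = 0.447).

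**Figure D4:**
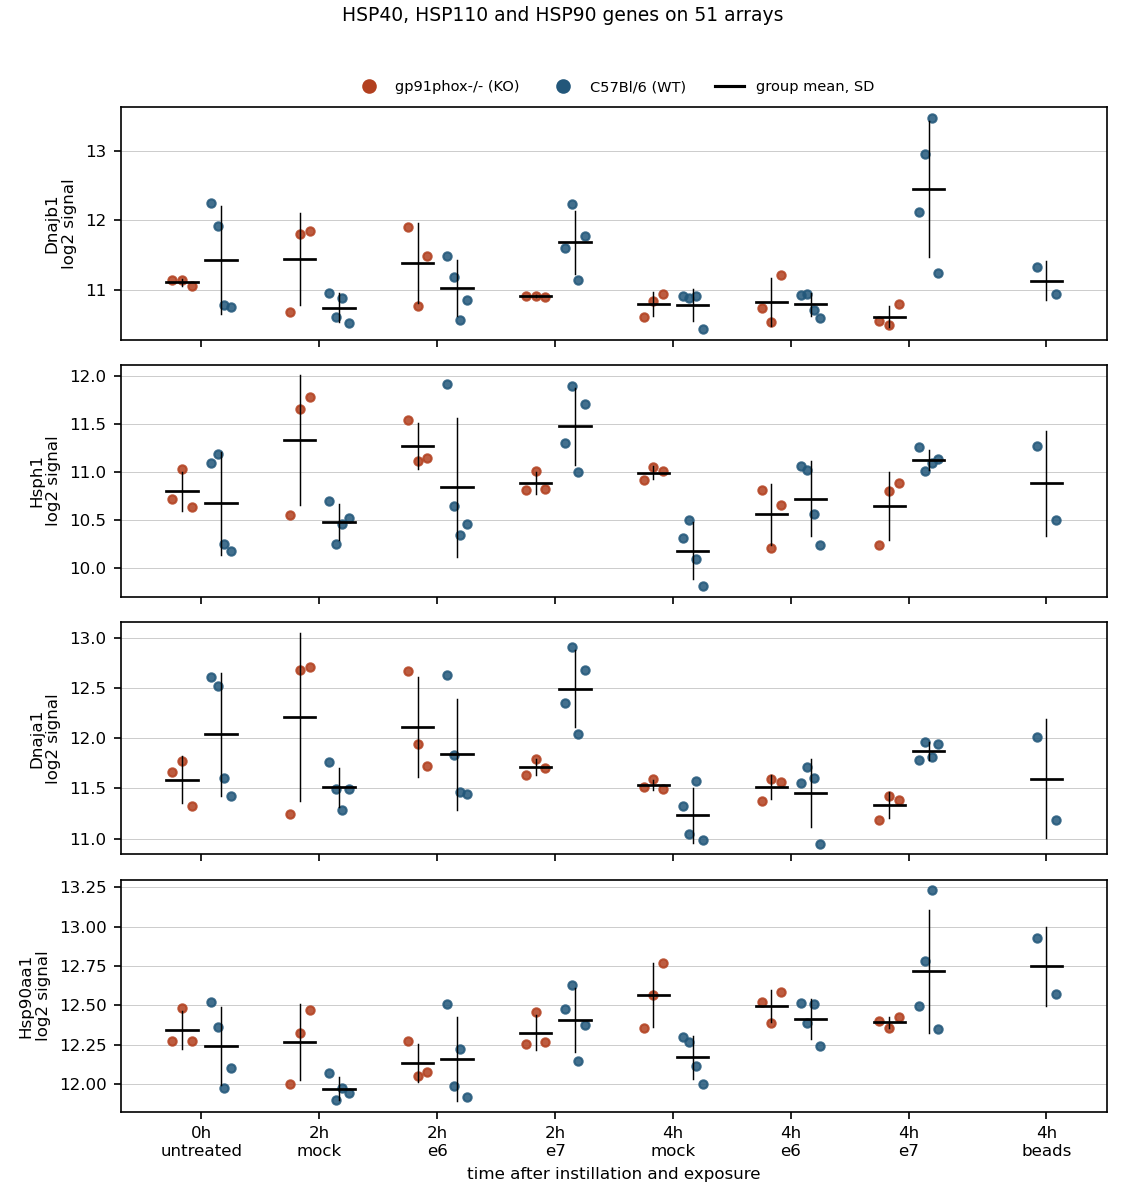
Log2 signal of Dnajb1, Hsph1, Dnaja1 and Hsp90aa1 (vertical axes) on 51 arrays by time and exposure, KO left of WT; horizontal lines are group means and vertical lines SD. Dnajb1 is highest after e7 at 4 h in WT macrophages, at 11.24 to 13.47, and KO mock replicates 2 and 3 at 2 h are high in Dnajb1, Hsph1 and Dnaja1.

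The smaller amount of conidia moved no member past the threshold. After e6 in WT macrophages Hspa1a differed from mock by 0.70 ± 0.64 at 2 h and by 1.35 ± 0.64 at 4 h. The count was 0 of 9 members at both times, with 0% of all probe sets called at 2 h and 0.00884% at 4 h, and with 0 and 2 members at an unadjusted p under 0.05. At 4 h e7 against e6 in WT, Dnajb1 was 1.65 ± 0.33 higher after e7 (limma, adjusted p = 7.02e-04), with e6 arrays at 10.92, 10.94, 10.71 and 10.60, all below the e7 arrays. It was the 1 of 9 members called, with 16.4% of all probe sets called and 6.42% called as higher, and without e7 replicates 2 and 3 it did not pass. On the second Dnajb1 probe set e7 against e6 at 4 h gave -0.14 ± 0.33. At 2 h 0 of 9 members differed between e7 and e6 in WT macrophages, with 0% of all probe sets called and 4 members at an unadjusted p under 0.05. In KO macrophages 0 of 9 did, with 7.06% called at 2 h and 0.897% at 4 h and with 1 and 2 members at an unadjusted p under 0.05. The e7 response at 4 h less that at 2 h gave 0 of 9 members in KO (1.7% called) and in WT (2.73% called), with 0 members at an unadjusted p under 0.05 in either.

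Polystyrene beads, an inert particle, were given only to WT mice. At 4 h Dnaja4 lay at 7.12 and 6.28 on the bead arrays, against 3.53, 5.03, 5.31 and 4.24 on the mock arrays. Bead arrays were all higher, and the rise was 2.17 ± 0.46 (limma, adjusted p = 0.0201), the 1 of 9 members called, with 1.14% of all probe sets called and 0.552% called as higher. The call was lost without bead replicate 1 or mock replicate 1, and in the first case the lone bead array is assumed to vary like the other groups. The bead arrays had 3'/5' log2 ratios of 4.11 and 5.32, against 1.19 to 2.34 on the mock arrays, and with that ratio as a covariate the call was lost. With signals under 50 set to 50 the rise was 1.06 and passed, and by the second probe set it did not pass. Hspa1a did not differ beyond its error, at 0.38 ± 0.79 with a 95% interval of -1.21 to 1.98. Between e7 conidia and beads the Hspa1a difference was 1.55 ± 0.79 and that of Dnajb1 1.31 ± 0.41, and 0 of 9 members passed, with 3.59% of all probe sets called and 2 members at an unadjusted p under 0.05. Between e6 conidia and beads 0 of 9 passed, with 0.327% called and 1 member at an unadjusted p under 0.05. Dnaja4 signals under 50 stood on 25 of the 51 arrays, and its folds are less sure there.

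Hspa8 and Hspb1 did not pass against mock after any exposure. The group means of Hspa8 spanned 0.72 log2 units, from 13.44 (KO 4 h e7) to 14.16 (KO 2 h e6). Hspb1 was low, under a signal of 50 on 15 of 51 arrays. It reached its highest mean in KO 4 h e6, with arrays at 7.46, 7.02 and 7.44, against 5.84, 6.65 and 6.57 in KO 4 h mock. The e6 arrays were all higher, but the difference of 0.95 ± 0.42 did not pass (limma, adjusted p = 0.570).

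Arrays of the same group also differed in these genes, in several members at once. In untreated WT macrophages, replicates 1 and 2 were high and replicates 3 and 4 low: Hspa1b lay at 11.23, 11.28, 7.77 and 7.12. Dnajb1 lay at 12.25, 11.92, 10.78 and 10.76 there, and Dnaja1 at 12.61, 12.52, 11.60 and 11.42. Hsph1 followed with 11.09, 11.18, 10.25 and 10.17, so that the same 2 arrays were high in each gene. The split was not limited to these genes. Over the 5091 genes above, replicates 1 and 2 correlated at 0.988 and replicates 3 and 4 at 0.992. Pairs across the split correlated at 0.958 to 0.966. The 3'/5' log2 ratio was 3.92 and 3.55 on the high arrays and 1.65 and 2.43 on the low ones, and its part in the split was not tested.

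The WT 2 h e6 group was split in the same replicates, with Hspa1b at 11.11, 10.74, 7.62 and 6.93. There the ratio ran the other way, at 2.07 and 1.06 on the high arrays and 2.25 and 2.41 on the low ones. Over the 5091 genes the high arrays of this group correlated at 0.971 and the low ones at 0.989. Pairs across its split correlated at 0.953 to 0.967. Among KO 2 h mock arrays, replicate 1 was low and replicates 2 and 3 high in Dnaja1 (11.24, 12.68 and 12.72) and in Hsph1 (10.55, 11.66 and 11.78). Their ratios were 1.22 on the low array and 1.0 and 0.92 on the high ones. Over the 5091 genes the high arrays correlated with each other at 0.991 and with the low one at 0.979 and 0.977. With such spread, mock against untreated gave 0 of 9 members in either genotype and at either time. In WT macrophages Hspa1a differed by -1.06 ± 0.64 at 2 h and by -1.45 ± 0.64 at 4 h, with 0.00442% and 0.0133% of all probe sets called. In KO macrophages it differed by 0.23 ± 0.74 and -0.20 ± 0.74, with 0.00442% and 1.2% called. At an unadjusted p under 0.05 the members were 1 and 4 in WT and 0 and 1 in KO.

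After the group means were taken away, all 36 pairs of members correlated above 0 over the 51 arrays, from 0.0023 to 0.95 with a median of 0.57, and 19 pairs lay above 0.5. The highest were Hspa1a with Hspa1b at 0.95, Hsph1 with Dnaja1 at 0.85 and Hsp90aa1 with Dnajb1 at 0.82. The arrays of a pair share RNA quality and array scale, which such a correlation also holds. The same count was not made for pairs of other genes. Whether the members varied together more than other genes of like signal was therefore not tested. The plot of Hspa1b against Dnaja1 shows where the genotypes part: at like levels of Dnaja1, KO arrays lay above most WT arrays in Hspa1b.

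**Figure D5:**
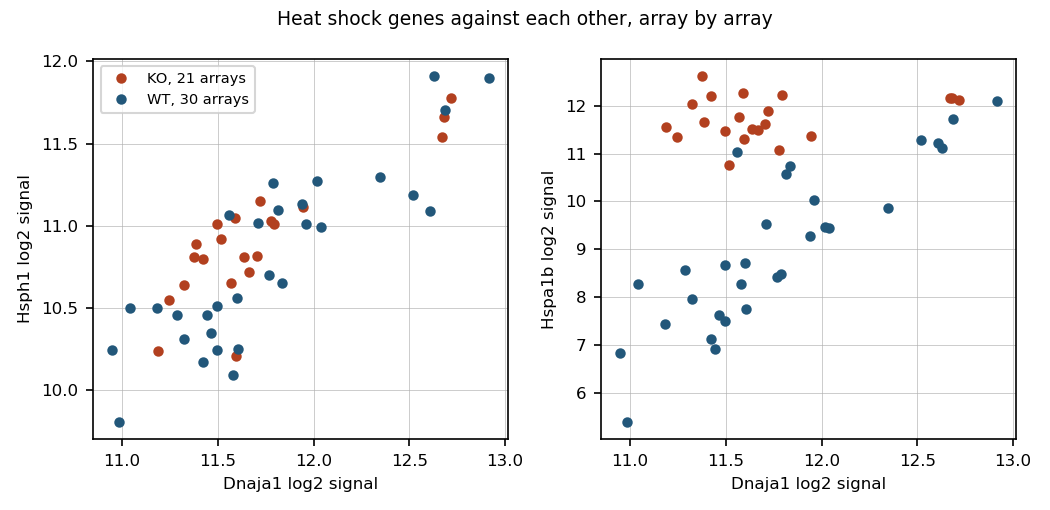
Log2 signal of Hsph1 (left) and Hspa1b (right) against that of Dnaja1 on 21 KO and 30 WT arrays, 1 point per array. Both genotypes share 1 cloud for Hsph1, while for Hspa1b the KO arrays stay at 10.75 to 12.62 over the whole range of Dnaja1 and the WT arrays spread from 5.40 to 12.10.

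Other chaperone genes were counted in lists. Of 22 measured relatives and co-chaperones of HSP70 and HSP90, 6 rose and 2 fell in WT macrophages at 4 h after e7, against 15.5% of all probe sets called and 5.84% called as higher. The median was -0.01 over the list and -0.08 over all genes. The alternative settings, the one without e7 replicates 2 and 3 included, were run for the members only. No call of a list gene was checked in them. Chordc1, a co-chaperone of HSP90, rose by 1.64 ± 0.30 (limma, adjusted p = 3.69e-04), Dnajb4, an HSP40 gene, by 1.17 ± 0.36 and Dnaja2, another, by 0.88 ± 0.19. Dnajb2 (1.0 ± 0.24) and the HSP110 relatives Hspa4l (0.71 ± 0.18) and Hspa4 (0.68 ± 0.17) made up the 6. Stip1, the adaptor between HSP70 and HSP90, fell by 1.14 ± 0.32, and Cdc37, which brings kinases to HSP90, fell by 1.0 ± 0.31, with limma adjusted p of 0.0129 and 0.0238. At 2 h after e7 the 1 of 22 that rose was Hspa4l (0.73 ± 0.18, limma adjusted p = 0.0277), with 1.61% of all probe sets called. In KO macrophages at 4 h after e7, 0 of 22 passed, with 0.00442% of all probe sets called and 1 of the 22 at an unadjusted p under 0.05. At 2 h after e7 in KO, where 8.65% of all probe sets were called, the 1 of 22 that rose was Hspa1l (3.39 ± 0.97, limma adjusted p = 0.0256), at a mean log2 signal of 1.71 over all arrays. Of the 5 mitochondrial chaperones Hspe1 fell there by 0.80 ± 0.20 (limma, adjusted p = 0.0118).

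Of 8 genes of the TRiC chaperonin, which folds actin and tubulin, Cct6a rose in WT macrophages at 4 h after e7 (0.85 ± 0.19, limma adjusted p = 0.00203). This 1 of 8 stands against 15.5% of all probe sets called and 5.84% called as higher, and the list's median was 0.15. Of 5 mitochondrial chaperones, 3 further small heat shock proteins and 3 heat shock factors or regulators, 0 passed there, with 1, 0 and 0 at an unadjusted p under 0.05. Between the genotypes, where 33.4% of all probe sets were called and 21.9% called as higher in KO, 2 of 3 small heat shock proteins were higher in KO over the 7 conditions, Cryab by 0.76 ± 0.28 and Hspb8 by 0.56 ± 0.21 (limma, adjusted p = 0.0302 and 0.0389). Hsf4, a heat shock factor known from the lens, was 1.19 ± 0.27 higher (limma, adjusted p = 7.97e-04) at a mean log2 signal of 4.35, which is dim. Of the 22 relatives and co-chaperones 4 were called, a smaller share than over all probe sets: Hspa2 (0.44 ± 0.11) and the barely detected Hspa1l (1.32 ± 0.34) were higher in KO, and Hspa4 (-0.20 ± 0.07) and Dnajb4 (-0.49 ± 0.15) were lower. Hspe1, the mitochondrial co-chaperonin, was 0.26 ± 0.07 higher (limma, adjusted p = 0.00335), and 0 of 8 TRiC genes passed.

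Hspa1b had the widest spread of group means (SD 1.58 over 15 groups). Among 5084 other genes with a mean log2 signal of at least 8, those whose 15 group means followed it most closely were Wsb2 (r = 0.94), Gabarapl1, Lipf, Zmat3, Ctsl, Cd36, Slc31a2 and Mcoln3 (r = 0.90 to 0.91). The 15 means come from the same arrays, and 7 of them are KO groups, so a gene with a genotype difference in the same direction scores high. Within groups the likeness was not kept: over the 51 arrays, after group means were taken away, Wsb2 correlated with Hspa1b at -0.43 and Cd36 at 0.39.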

How the data were processed

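The values deposited by the authors were probe set signal intensity on a linear scale for 51 Affymetrix arrays. Per the labels' protocols, RNA (100 ng) was labelled by the two-cycle procedure. Per the submitters' processing notes, the tools were GCOS and RMA, with no version or role given. The mean of each array after trimming 2% at either end lay at 500.2, as the scaled signal of GCOS would, and the genome build behind the probe sets is not given in the sources used here. Precision is set by the number of arrays, since arrays count no reads.

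Of 22690 probe sets, 64 controls were left out. The platform annotation gave 20380 probe sets 1 symbol, 691 several and 1555 none. Values were taken to log2 without pseudocount or filter. All 51 arrays entered a linear model with 1 mean per group, by lmFit, contrasts.fit and eBayes of limma (version 3.58.1, R 4.3.3), and p-values (two-sided) were adjusted by Benjamini-Hochberg over 22626 probe sets, with a call at an adjusted p under 0.05. Errors after ± are SE of a log2 difference unless SD is written. The fit was tested on simulated data. The members and gene lists were chosen with earlier results of these data known. Members were named as given, other list genes where they were called, and genes of like pattern as the 8 with the highest r of 15 group means.

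Alternatives were quantile normalization, a floor at a signal of 50, leaving out dim probe sets, array weights, the 3'/5' ratio as covariate, a fit of the compared groups only, a replicate block, a second probe set, and leaving out single arrays. Promoter sequences and coordinates are from RefSeq, assembly GRCm38.p6. The main fit did not pair arrays by replicate number. In no comparison of 3 or more pairs did every same-numbered pair correlate above 0.1. In several WT comparisons 3 of 4 such pairs did, up to 0.64 for e6 against mock at 4 h, so whether same-numbered arrays belong together was not settled.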

Additional observations from a re-analysis of the deposited data

Results flagged for a closer look

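In the WT 4 h mock group, replicate 4 lay far below the other 3 arrays for 2 members. Its log2 signal was 10.44 for Dnajb1, against 10.88 to 10.91 on the others, and 5.40 for Hspa1b, against 7.96 to 8.28. In the untreated WT group, replicate 3 had the lowest Hspb1 signal, at 4.57 against 5.85 to 6.08. These are 3 of 63 sets examined for a single array apart from the rest, a rule that chance meets in about 1 of 20 sets. Each set was 1 member in 1 WT group of 4 arrays. KO groups and beads had too few arrays for the rule. Members share their arrays, so the sets are not independent.

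The response of Hsp90aa1 to e7 at 2 h differed between genotypes on the third of its probe sets, by -1.49 log2 units for the KO change minus the WT change (limma, adjusted p = 0.0372). It was the 1 probe set of 22 that passed in the 6 tests of unequal change.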

How the results depend on the processing

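The counts below are of the 9 members called. In e7 against mock at 2 h in WT (2 called), 0 passed with the 3'/5' ratio as covariate or with the compared groups only, 4 with quantile normalization and 6 with array weights, and leaving out single arrays gave 0 to 4. In e7 against mock at 4 h in WT (4 called), 2 passed with array weights (Hsp90aa1 and Dnajb1) or by the second probe set (Hspa1a, which has 1 probe set, and Dnaja1, not called before), 0 with the compared groups only, 1 without the arrays with high neutrophil markers and 0 without e7 replicates 2 and 3; leaving out single arrays gave 2 to 5. In e7 against e6 at 4 h in WT (1 called), the compared groups only, or leaving out e7 replicates 2 and 3, gave 0, and single arrays 1 to 2. The second Dnajb1 probe set turned the direction to -0.39 against mock and -0.14 against e6. In beads against mock (1 called), 0 passed with the 3'/5' covariate, without dim probe sets, with the compared groups only or by the second probe set, 2 passed with quantile normalization or a floor at 50, and single arrays gave 0 to 1. In e7 against beads (0 called), 1 passed with the 3'/5' covariate or without dim probe sets, 2 with the floor, and single arrays gave 0 to 1. The floor gave 1 in e6 against beads, and 1 each (Hspb1) in KO at 4 h for e6 against mock and e7 against e6. In KO against WT, untreated (0 called) gave 1 with array weights or without dim probe sets and 0 to 1 without single arrays, 2 h mock (2 called) gave 4 with array weights and 1 to 3 without single arrays, and 4 h mock (3 called) gave 0 with the compared groups only and 1 to 3 without single arrays. The difference of the e7 responses (0 called) gave 3 with array weights at 2 h, 1 with array weights or without dim probe sets at 4 h, and 0 to 2 at both times without single arrays. In e7 against e6 at 2 h in WT (0 called), single arrays gave 0 to 1. Except where an alternative uses fewer arrays or probe sets, the cause was not tested. In the mean genotype difference (4 called), 4 to 5 members passed without single arrays.

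Replicate numbers are shared between groups, and whether same-numbered arrays belong together was not settled. With the replicate number as a block, 4 members passed in e7 against mock at 2 h in WT, 1 in e7 against beads and 5 in the mean genotype difference, where Hspa1a differed by 2.27 and Hspa1b by 2.23.

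Quantile normalization moved the median over all genes by over 0.1 in several comparisons, by -0.21 at 2 h for KO e7 against mock and by -0.129 for beads against mock, so small differences there are relative to that shift. Dim probe sets limit Dnaja4 and Hspb1, 2 arrays limit the beads group, and 2 added alternatives (high neutrophil arrays, e7 replicates 2 and 3) were chosen after seeing the data.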
